A study of Homo sapiens with 6 samples.

Results

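The HOX genes of BT549 cells were compared between cells given control siRNA and cells given siRNA against BNC2, the gene for the zinc finger protein basonuclin-2. Members were taken by symbol, as the letters HOX followed by a cluster letter A to D and a number, which gave 39 of the 23346 genes counted: 11 in HOXA, 10 in HOXB, 9 in HOXC and 9 in HOXD. BT549 is an established human breast cancer cell line, labelled mesenchymal and WT, and all libraries came from this one line grown in RPMI with serum. In the NC siRNA group (n = 3) cells received 20 nM control siRNA, and in the BNC2 siRNA group (n = 3) they received 20 nM BNC2 siRNA, an equal mix of 3 siRNAs according to the methods. RNA was sequenced 6 d after transfection in 3 biological replicates per group.

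HOX genes encode homeodomain transcription factors that give cells their position along the head-to-tail axis and along the limbs. They lie in 4 clusters, where the lowest-numbered genes are used towards the head and the highest-numbered genes towards the tail and the ends of the limbs, and genes with the same number in different clusters are called paralogues. Adult cells, fibroblasts and other mesenchymal cells in particular, keep a HOX pattern that marks where in the body they came from. Trithorax and Polycomb proteins hold HOX genes in the active or silent state, retinoic acid induces the head-end genes in the embryo, and PBX and MEIS proteins of the TALE class bind DNA together with HOX proteins.

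The piece of the homeobox that encodes the DNA-contacting helix is the sequence that makes these genes one family. It is shown for HOXC9, HOXC10 and HOXC11, 3 neighbours of which the outer ones had the largest falls with all libraries. HOXA10, which rose as HOXC10 did, is shown as well. Each line gives 30 bases of coding exon, 5′ to 3′ on the gene's own strand, and capitals mark the 16 bases that are identical in all 39 HOX genes.
HOXC9: AaaaTcTGGTTtCAgAAtcGaaGgaTgAAg
HOXC10: AaaaTcTGGTTtCAaAAtcGcaGaaTgAAa
HOXC11: AaaaTtTGGTTtCAgAAcaGaaGgaTgAAa
HOXA10: AaaaTcTGGTTtCAgAAccGcaGgaTgAAa
In GRCh37 these stretches lie on chromosome 12, plus strand, at chr12:54396384-54396413 for HOXC9, chr12:54383138-54383167 for HOXC10 and chr12:54369111-54369140 for HOXC11. That of HOXA10 is on the minus strand at chr7:27211581-27211610. Among the 19 HOX genes tested, pairs shared between 20 and 30 of the 30 bases, with a median of 25 over 171 pairs. HOXC10, which rose, shared 26 of them with HOXC9, which fell.

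BNC2 itself was checked first. Its level was 65.6, 51.5 and 58.6 CPM (counts scaled to library size with TMM factors) with NC siRNA, against 35.5, 36.6 and 41.6 CPM with BNC2 siRNA. The groups did not overlap, and BNC2 RNA was at 64.6% of its control level (log2 fold change −0.63, SE 0.09, adjusted p = 8.2e-06). All log2 fold changes here are BNC2 siRNA over NC siRNA from edgeR's quasi-likelihood test with Benjamini-Hochberg adjustment over all genes tested, and a gene was called at an adjusted p of at most 0.05.

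The libraries held 16093978 to 18246254 counts in genes, and 12186 genes passed the filter of more than 1 CPM, there taken over total counts without TMM factors, in at least 3 libraries. The mesenchymal label was checked with VIM, FN1, CDH2, ZEB1, ZEB2 and SPARC, which were all above the filter and summed to 6464 to 6566 CPM in NC and 6542 to 6795 CPM in BNC2 siRNA libraries. The 6 markers were all called and differed in direction: VIM, FN1, ZEB1 and CDH2 (1.36) rose, and SPARC (−0.52) and ZEB2 (−1.22) fell. Epithelial markers reached at most 23 counts in a library, with EPCAM and ESRP1 at 0, and blood and endothelial markers reached at most 7 counts. Among these untested genes ESRP2 had 8, 7 and 2 counts in NC and 13, 23 and 17 in BNC2 siRNA libraries. VWF had 3, 6 and 4 counts in NC and 0 in every BNC2 siRNA library. In RNA from whole cultures, fewer cells that use a gene and less RNA of it per cell cannot be told apart.

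Summed HOX RNA was lower upon BNC2 knockdown, and HOXB and HOXC carried nearly all of it in both groups. The summed level of the 39 genes was 305.7, 318.3 and 317.2 CPM with NC siRNA and 199.2, 200.2 and 176.8 CPM with BNC2 siRNA, so the sum was at 61.2% of control. HOXB went from 174.8 ± 4.13 CPM (SD, n = 3) to 96.9 ± 6.12, and HOXC from 126.7 ± 9.02 to 82.1 ± 7.58. The remaining clusters were low, and they differed in direction: HOXA was at 9.64 ± 0.50 CPM in NC and 11.7 ± 0.772 in BNC2 siRNA libraries, while HOXD was at 2.54 ± 0.439 and 1.43 ± 0.142. The 3 libraries of one group did not overlap those of the other for any of the 4 sums. These sums are given as a description, with no test.

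Of the 39 genes, 19 passed the filter, and of these 12 were down-regulated, 2 were up-regulated (HOXA10 and HOXC10) and 5 were not called. That is 73.7% called, where 72.9% of all 12186 genes were called, so a call by itself did not set the HOX genes apart. By direction, 63.2% of the HOX genes tested were called down, against 36.2% of all genes, and 36.6% of all genes were called up. Their median log2 fold change was −0.53, with 0.00 over all genes tested. Groups of libraries did not overlap for 14 of the 19 genes, where the share over all genes was 74.9%. Called falls of at least 2-fold were seen for 6 of the 19 (31.6%; 10.1% of all genes), namely HOXB4, HOXB5, HOXB8, HOXC9, HOXC11 and HOXC13, and no HOX gene was called at least 2-fold higher. HOXB8 passed the filter through the NC libraries alone, so it could enter these counts only as lower; without it 11 of 18 were called down, 5 of them by at least 2-fold.

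**Figure D1:**
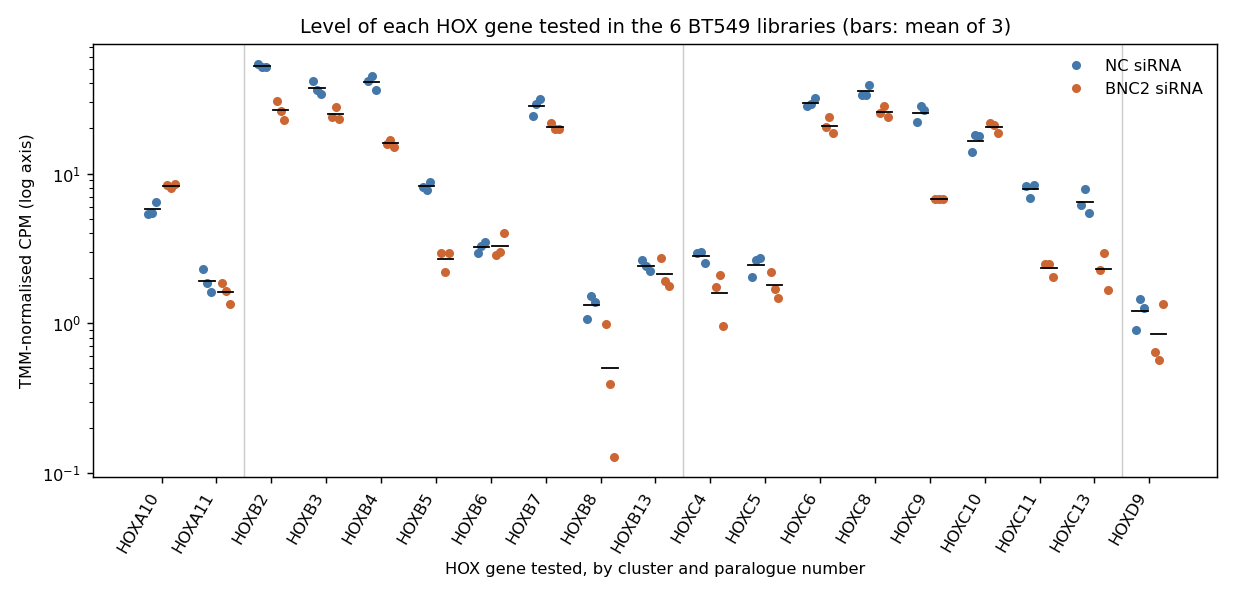
TMM-normalised CPM on a log axis for the 19 HOX genes tested, by cluster, with 1 point per library (blue NC siRNA, orange BNC2 siRNA) and a bar at the mean of 3. HOXC9 drops from 22.0 to 28.1 CPM in NC to 6.71 to 6.75 CPM in BNC2 siRNA libraries, while HOXA10 and HOXC10 lie higher in BNC2 siRNA libraries.

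HOXC (GRCh37 chr12:54332615-54449814, plus strand) held the largest falls with all libraries, while HOXB8 fell most (−2.26) without BNC2 replicate 1. Of its 9 genes 8 were tested: 6 fell, HOXC10 rose and HOXC5 was not called. HOXC9, a gene of trunk identity at the thoracic level, was at 22.0, 28.1 and 26.4 CPM in NC libraries and at 6.75, 6.71 and 6.75 CPM after knockdown. It was 3.78-fold lower (log2 fold change −1.92, SE 0.11, adjusted p = 2.3e-10), and every BNC2 siRNA library was far below every NC library. HOXC11, a posterior gene used in hindlimb and lower trunk, was at 8.28, 6.83 and 8.43 CPM in NC and 2.50, 2.48 and 2.04 CPM in BNC2 siRNA libraries. The groups were again well apart, with HOXC11 3.33-fold lower (−1.74, SE 0.17, adjusted p = 8.1e-08).

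HOXC13, which is required for hair and nail formation, was at 6.14, 7.90 and 5.42 CPM in NC libraries and 2.27, 2.93 and 1.66 CPM in BNC2 siRNA libraries. Its 2.81-fold fall (−1.49, SE 0.21, adjusted p = 6.9e-06) left the groups without overlap, although its CV within each group (19.7% and 28.0%) was wider than that of HOXC9 (12.4% and 0.293%). The 0.293% is smaller than counting error alone gives at 106 to 119 counts a library, so it understates replicate spread. Between HOXC9 and HOXC11 lies HOXC10, a gene of lumbar and hindlimb identity, and it went the other way. HOXC10 was at 13.9, 18.1 and 17.9 CPM in NC libraries and 21.8, 21.0 and 18.8 CPM in BNC2 siRNA libraries. All 3 knockdown libraries were above all 3 controls, but the margin between the nearest libraries was small (log2 fold change 0.31, SE 0.11, adjusted p = 0.018). This call was lost with scaling by total counts (0.23, adjusted p = 0.062) and when NC replicate 1, BNC2 replicate 1 or BNC2 replicate 2 was left out (0.17 with adjusted p = 0.13, 0.27 with 0.065 and 0.30 with 0.052), which left HOXA10 as the 1 HOX gene called up. About 8.40% of the GENCODE transcript of HOXC10 is shared with another gene model on the same strand. Whether reads were lost there was not tested, as counting used other gene models.

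Counted against its neighbours, the HOXC10 difference was larger than its own change. The ratio of HOXC10 to HOXC9 counts, whose start sites are 15 kb apart, was 0.631, 0.645 and 0.677 in NC libraries and 3.23, 3.13 and 2.78 in BNC2 siRNA libraries. The ratio of HOXC10 to HOXC11 counts, with start sites 12.0 kb apart, was 2.15 ± 0.488 (SD, n = 3) in NC and 8.80 ± 0.388 in BNC2 siRNA libraries. Thus HOXC9 gave more reads than HOXC10 in every NC library and fewer in every BNC2 siRNA library. A ratio within a library does not depend on how libraries are scaled, and it shows that neighbouring genes changed unequally.

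The genes at the other end of the cluster fell less. HOXC8, used in the trunk, was at 33.4, 33.7 and 38.9 CPM in NC libraries and 25.5, 28.3 and 23.8 CPM in BNC2 siRNA libraries. HOXC6, a gene of the cervical to thoracic boundary, was at 28.2, 29 and 32.0 CPM and at 20.4, 23.9 and 18.5 CPM. Neither gene had overlapping groups, and they fell to 73.4% and 70.5% of control (HOXC8 −0.45, SE 0.09, adjusted p = 0.00027; HOXC6 −0.50, SE 0.10, adjusted p = 0.00020). HOXC4 was low, at 2.81 ± 0.243 CPM in NC and 1.60 ± 0.581 in BNC2 siRNA libraries (−0.80, SE 0.25, adjusted p = 0.0092). HOXC5 was at 2.46 ± 0.373 and 1.79 ± 0.382 CPM (−0.45, SE 0.23, adjusted p = 0.095), and its groups overlapped. HOXC5 was called when NC replicate 1 (−0.59, adjusted p = 0.043) or BNC2 replicate 1 (−0.62, adjusted p = 0.048) was left out. Of its GENCODE transcript 67.3% is shared with read-through models on the same strand. Whether this affected its counts, which were made with other gene models, was not tested. HOXC12 had 0 counts in all 6 libraries.

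**Figure D2:**
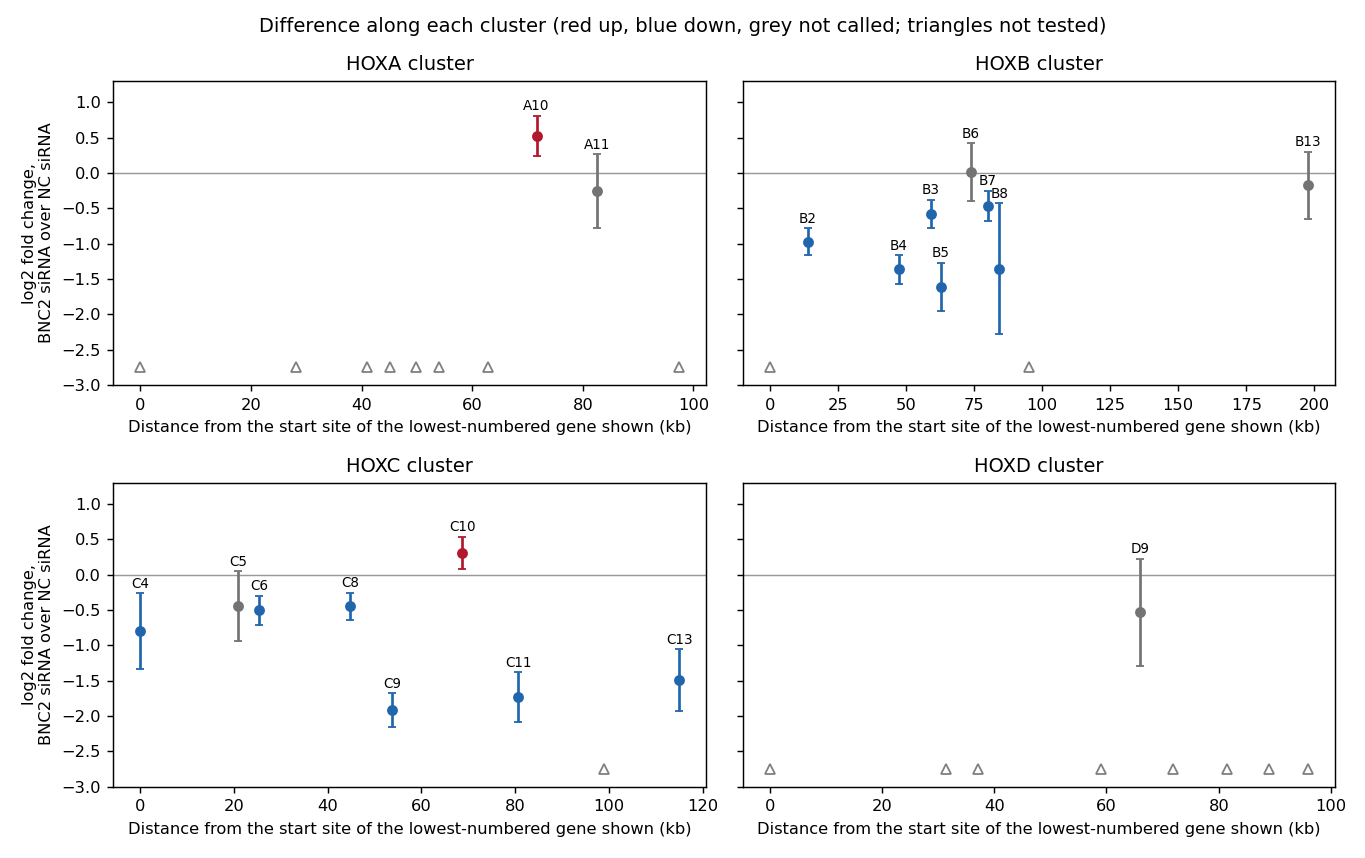
log2 fold change (BNC2 siRNA over NC siRNA) with its 95% interval against distance in kb from the start site of the lowest-numbered gene shown, 1 panel per cluster; red is called up, blue called down and grey not called, and open triangles at the bottom mark other genes not tested. In the HOXC panel HOXC10 stands at 0.31 between HOXC9 at −1.92 and HOXC11 at −1.74.

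HOXB (GRCh37 chr17:46605888-46806112, minus strand) gave most of the HOX RNA, 55.7% of it in NC and 50.5% in BNC2 siRNA libraries. Of its 10 genes 8 were tested; 6 fell and 2 were not called. HOXB2, which patterns the hindbrain, was at 54.1, 51.5 and 51.2 CPM in NC libraries and 30.5, 26.2 and 22.9 CPM in BNC2 siRNA libraries. It was the HOX gene with the most RNA per length, and it fell to 50.9% of control (−0.97, SE 0.09, adjusted p = 5.1e-08) without overlap. HOXB4, known for its role in the expansion of blood stem cells, was at 41.7, 45.1 and 36.1 CPM in NC and 15.8, 16.8 and 15.1 CPM in BNC2 siRNA libraries. Its fall was 2.57-fold (−1.36, SE 0.09, adjusted p = 1.5e-09).

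HOXB5, a gene of neural crest and gut development, was at 8.11, 7.73 and 8.79 CPM in NC libraries and 2.97, 2.20 and 2.93 CPM after knockdown. With a 3.04-fold fall (−1.61, SE 0.16, adjusted p = 1.3e-07) it changed most in this cluster with all libraries, and the groups were far apart. HOXB8 fell further when BNC2 replicate 1 was left out, as given below. HOXB3, which acts in the hindbrain with HOXB2, was at 41.4, 36.2 and 34.0 CPM in NC and 24.0, 27.8 and 23.1 CPM in BNC2 siRNA libraries. HOXB7, often studied in breast cancer, was at 24.2, 29.2 and 31.6 CPM and at 21.9, 19.9 and 19.7 CPM. Both fell by less than 2-fold without overlap (HOXB3 −0.58, SE 0.09, adjusted p = 3.6e-05; HOXB7 −0.47, SE 0.10, adjusted p = 0.00053).

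HOXB8, a gene used in blood cell progenitors, sat near the limit of the filter. It had 19, 27 and 23 counts in NC libraries and 17, 7 and 2 counts in BNC2 siRNA libraries. The groups did not overlap, but the knockdown libraries varied more among themselves than for any other called HOX gene (CV 87.5%), and the fall (−1.35, SE 0.44, adjusted p = 0.011) was −2.26 without BNC2 replicate 1 and −0.94 without BNC2 replicate 3. When any 1 NC library was left out HOXB8 no longer passed the filter. HOXB6 was at 2.93, 3.30 and 3.49 CPM in NC and 2.85, 2.99 and 4.01 CPM in BNC2 siRNA libraries, with overlapping groups (0.01, 95% interval −0.39 to 0.42, adjusted p = 0.96). The ratio of HOXB6 to HOXB5 counts was 0.395 ± 0.0333 in NC and 1.23 ± 0.233 in BNC2 siRNA libraries. HOXB6 shares 11.2% of its transcript with HOXB3 on the same strand, and the sign of its difference turned under 3 settings given in the closing section. HOXB13, known from the prostate and set well apart from the rest of the cluster, was at 2.43 ± 0.211 and 2.14 ± 0.514 CPM (−0.18, 95% interval −0.65 to 0.30, adjusted p = 0.49).

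The reads of HOXB and of HOXC were divided among their genes differently after knockdown, which is described with no test. Within HOXC the share of HOXC10 was 13.1 ± 1.09% (SD, n = 3) in NC and 25.1 ± 1.35% in BNC2 siRNA libraries, and that of HOXC9 was 20.1 ± 1.5% and 8.26 ± 0.801%. HOXC8 had the largest HOXC share on average in both groups (27.9 ± 1.58% and 31.5 ± 0.764%). HOXC6 was at 23.5 ± 0.888% and 25.4 ± 1.22%, and after knockdown it differed from HOXC10 by less than their SDs. Within HOXB, HOXB4 had 23.4 ± 2.08% of the reads in NC and 16.4 ± 0.843% in BNC2 siRNA libraries, HOXB7 had 16.2 ± 2.46% and 21.1 ± 0.846%, and the share of HOXB2 was 29.9 ± 0.821% and 27.3 ± 2.31%.

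**Figure D3:**
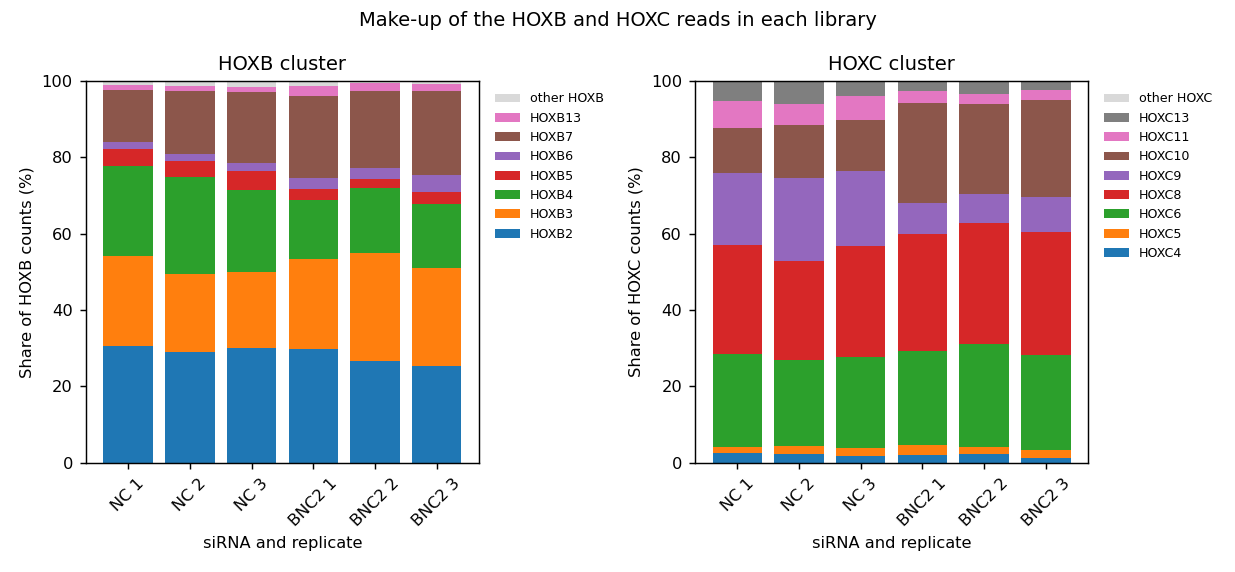
Share (%) of all HOXB reads (left) and HOXC reads (right) taken by each gene in each of the 6 libraries; genes under 1% in NC are pooled as other. HOXC10 takes 13.1% of HOXC reads on average in NC and 25.1% in BNC2 siRNA libraries, while HOXC9 goes from 20.1% to 8.26%.

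Levels of different genes were compared per kb of the gene's canonical GENCODE transcript. In NC libraries HOXB2 was highest at 31.1 ± 0.961 CPM per kb (SD, n = 3). HOXB7 (20.8 ± 2.78), HOXB4 (20.5 ± 2.26), HOXC6 (18.0 ± 1.23) and HOXC9 (17.3 ± 2.14) followed. HOXB7 and HOXB4, and likewise HOXC6 and HOXC9, differed by less than their SDs. Next came HOXC8 at 14.6 ± 1.28, HOXB3 at 11.3 ± 1.15 and HOXC10 at 8.41 ± 1.21 CPM per kb. After knockdown the order of means was HOXB2 (15.8), HOXB7 (15), HOXC6 (12.7), HOXC8 (10.7), HOXC10 (10.4), HOXB4 (7.95), HOXB3 (7.56) and HOXC9 (4.57 CPM per kb). This order is given without SDs, and genes with close means in it are not ranked. HOXB4 and HOXC9 thus moved from among the upper genes to below HOXC10.

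HOXA (chromosome 7, minus strand) was nearly silent apart from its posterior genes, and only HOXA10 and HOXA11 passed the filter. HOXA10, which is needed for the uterine lining and the lumbar spine, was at 5.35, 5.43 and 6.50 CPM in NC libraries and 8.37, 7.95 and 8.53 CPM in BNC2 siRNA libraries. The groups did not overlap and HOXA10 was 1.44-fold higher (0.53, SE 0.13, adjusted p = 0.0020). It is the paralogue of HOXC10, the other HOX gene that rose, and it stayed called in all 14 alternatives tried. HOXA11, also a gene of the uterus and the limb, was at 1.93 ± 0.349 and 1.61 ± 0.263 CPM, with overlapping groups (−0.26, 95% interval −0.77 to 0.26, adjusted p = 0.36). HOXA10 had 59.8 ± 6.44% of the HOXA reads in NC and 71.0 ± 5.35% in BNC2 siRNA libraries.

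HOXA13, which shapes the digits and the genital tract, lay just outside the filter, with 13, 11 and 8 counts in NC and 24, 22 and 16 counts in BNC2 siRNA libraries. Without the filter its log2 fold change was 1.02 (adjusted p = 0.017). HOXA4 had 6, 2 and 1 counts in NC and 0 in every BNC2 siRNA library (adjusted p = 0.021 without the filter), too few for a fold. HOXA13 and HOXA10 thus had higher counts after knockdown, and HOXA11 between them was not called. HOXA7 (4, 6 and 6 counts against 3, 1 and 0) and HOXA5 (7, 6 and 5 against 5, 4 and 0) were not called without the filter. HOXA3, HOXA6 and HOXA9 had at most 3 counts in any library, and HOXA2 had none.

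HOXD (GRCh37 chr2:176957449-177055635, plus strand) was the least expressed cluster, at 0.808% of HOX reads in NC libraries, and HOXD9 was its 1 gene above the filter. HOXD9, a limb gene, was at 0.901, 1.46 and 1.26 CPM in NC and 0.640, 0.564 and 1.34 CPM in BNC2 siRNA libraries, with overlapping groups (−0.53, 95% interval −1.29 to 0.23, adjusted p = 0.19). HOXD8 was just outside the filter with 17, 16 and 26 counts in NC and 8, 6 and 2 in BNC2 siRNA libraries (−1.79 without the filter, adjusted p = 0.00032). Its groups did not overlap. HOXD13 had 5, 2 and 3 counts and 4, 7 and 2 counts, HOXD3 had 1 count in all, and HOXD1, HOXD4, HOXD10, HOXD11 and HOXD12 had none.

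In HOXB the genes below the filter were HOXB9, with 10, 11 and 21 counts in NC and 6, 3 and 8 in BNC2 siRNA libraries (−1.21 without the filter, adjusted p = 0.037), and HOXB1 with 0. In total 20 HOX genes were not tested, 8 of them with 0 counts in all libraries and 12 with at least 1 count. A count of 0 allows up to 0.168 to 0.191 CPM in a library (3 counts), which covers counting error only.

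Genes with the same number in different clusters were set side by side, with no test of their differences. Among genes numbered 10, both tested genes rose. Among genes numbered 9, HOXC9 fell at −1.92, HOXD9 was at −0.53 and not called, and HOXB9 was at −1.21 without the filter. HOXB4 and HOXC4 both fell, as did HOXB8 and HOXC8, and without the filter HOXA4 and HOXD8 were called down as well. For number 6, HOXC6 fell at −0.50 and HOXB6 was at 0.01 and not called. Of the genes numbered 5, HOXB5 fell at −1.61 and HOXC5 was at −0.45 and not called, and of those numbered 11 HOXC11 fell at −1.74 and HOXA11 was at −0.26 and not called. Among those numbered 13, HOXC13 fell at −1.49, HOXB13 was at −0.18 and not called, and HOXA13 was at 1.02 without the filter.

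Start sites could be shown for few of these genes. The RefSeq promoter table (GRCh38.p14) had entries for 20 of the 39 HOX genes, 4 of them among the genes tested. The 250 bases upstream of the start are printed 5′ to 3′ for HOXA10, the clearest rise, which has 2 entries, and for HOXC4 and HOXC5, which have the same start in this table and of which HOXC4 was called down. Capitals mark matches to the TATA box letters TATAAA on either strand.
HOXA10 first entry: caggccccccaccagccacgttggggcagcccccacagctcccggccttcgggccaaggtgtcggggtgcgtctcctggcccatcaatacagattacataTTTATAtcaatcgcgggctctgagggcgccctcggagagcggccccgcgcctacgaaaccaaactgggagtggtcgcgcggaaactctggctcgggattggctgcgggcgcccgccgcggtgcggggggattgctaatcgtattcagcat
HOXA10 second entry: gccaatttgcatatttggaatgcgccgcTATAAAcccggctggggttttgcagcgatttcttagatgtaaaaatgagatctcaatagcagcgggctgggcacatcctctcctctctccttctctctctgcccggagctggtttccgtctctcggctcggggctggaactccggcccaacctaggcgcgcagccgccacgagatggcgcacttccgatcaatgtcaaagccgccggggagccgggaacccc
HOXC4 and HOXC5: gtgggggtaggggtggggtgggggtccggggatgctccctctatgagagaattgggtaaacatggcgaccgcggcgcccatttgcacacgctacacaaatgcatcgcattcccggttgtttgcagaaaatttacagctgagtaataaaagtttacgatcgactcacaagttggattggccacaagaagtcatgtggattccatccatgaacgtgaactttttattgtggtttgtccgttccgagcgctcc
These lie in GRCh38 at chr7:27174321-27174570 and chr7:27179862-27180111 on the minus strand, and at chr12:54016638-54016887 on the plus strand. TATAAA occurred in 5 of 27 HOX entries (18.5%) and in 10.7% of all 35116 entries of that length, both strands searched. The letters TGATNNAT, of the kind bound by HOX and PBX together, were in 3 HOX entries (11.1%) and in 6.47% of all entries, and in none of the 3 windows printed. CpG pairs numbered 24, 19 and 14 in the 3 windows, with a median of 19 over HOX entries and 11 over all entries. A match describes the letters and not a site in use.

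Antisense RNAs are common in HOX clusters, and they were looked at in 2 ways. The list of HOX cluster RNAs had 30 symbols, of which 15 were rows of the table and 1 passed the filter. HOTAIR, a long noncoding RNA made from the antisense strand between HOXC11 and HOXC12 and known for its binding to a Polycomb complex, was at 3.55, 2.30 and 3.31 CPM in NC and 1.16, 1.47 and 1.08 CPM in BNC2 siRNA libraries. It fell 2.44-fold without overlap (−1.29, SE 0.25, adjusted p = 0.00019), as did its neighbour HOXC11. HOTAIRM1, of the HOXA cluster, had 9, 9 and 13 counts in NC and 4, 1 and 2 in BNC2 siRNA libraries and was not tested. HOXA-AS5, an older symbol of the HOXA11 antisense RNA that was named after its values were seen, was at −0.40 (SE 0.32, adjusted p = 0.27). Of the other rows 9 were at 0 in all libraries, among them the 6 miRNA genes.

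The second way used reads on the strand opposite to each HOX gene, which the strand-specific counts of each library give. Over all HOX genes these were 417, 432 and 392 reads in NC and 172, 226 and 185 reads in BNC2 siRNA libraries. Opposite-strand reads of the whole library were also lower after knockdown, at 2.09% to 2.14% in NC and 1.59% to 1.86% in BNC2 siRNA libraries, and their part in this difference was not tested. HOXB3 gave most of them, with 295, 312 and 275 reads in NC and 137, 154 and 145 in BNC2 siRNA libraries, which is 31.2% and 25.6% of all reads over HOXB3. GENCODE places HOXB-AS1 and HOXB-AS3 opposite to exons of HOXB3, and the HOXB-AS3 row itself had 5, 7 and 1 counts in NC and 2, 1 and 2 in BNC2 siRNA libraries. HOXB2 had 20, 33 and 25 opposite reads in NC and 3, 12 and 6 in BNC2 siRNA libraries, or 2.78% and 1.53% of its reads. HOXC9 had 30, 17 and 27 and then 5, 6 and 8, which was 5.27% and 5.28% of its reads, so its opposite reads were lower in step with those of the gene. HOXC10 had 11, 7 and 6 and then 4, 5 and 3 (2.70% and 1.14% of its reads), so these were lower although the gene rose. Among the 8 HOX genes with at least 20 opposite reads in all, every BNC2 siRNA library was below every NC library for 6 and above for 0, while over the 7783 genes of the table with that many it was below for 30.7% and above for 5.69%. HOXA11 had 6, 7 and 6 opposite reads in NC and 10, 9 and 7 in BNC2 siRNA libraries.

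**Figure D4:**
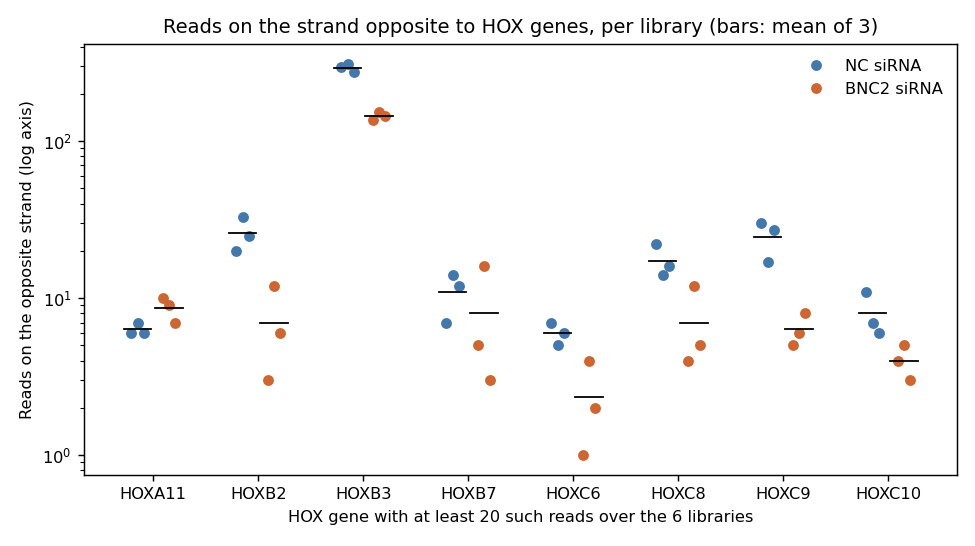
Reads on the strand opposite to each HOX gene with at least 20 such reads in all, 1 point per library on a log axis (blue NC siRNA, orange BNC2 siRNA), with a bar at the mean of 3. HOXB3 has 275 to 312 such reads in NC and 137 to 154 in BNC2 siRNA libraries.

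Genes for TALE proteins, the DNA-binding partners of HOX proteins, were listed together with PBXIP1, which binds PBX proteins and is not itself of the TALE class. Of 9 genes described 8 were tested: 4 rose (36.6% of all genes did), PBX4 fell and 3 were not called. The median of the 8 log2 fold changes was 0.21, where that of all genes was 0.00. PBX2 was at 40.6, 34.1 and 33.6 CPM in NC and 87.6, 109.6 and 95.4 CPM in BNC2 siRNA libraries (1.43, SE 0.09, adjusted p = 4.0e-10). It rose more than 2-fold with no overlap. MEIS2 (0.78, SE 0.07), MEIS1 (0.49, SE 0.17) and PBXIP1 (0.66, SE 0.07) rose too. The MEIS1 call (adjusted p = 0.015) was lost without NC replicate 2 (0.42, adjusted p = 0.060) or BNC2 replicate 1 (0.33, adjusted p = 0.10). PBX4 was at −0.72 (SE 0.26, adjusted p = 0.020) with overlapping groups. With scaling by total counts 4 genes of the list rose and 2 fell, and no gene of it was called down without NC replicate 2, BNC2 replicate 1 or BNC2 replicate 3. PBX3 (−0.06), MEIS3 (−0.08) and PKNOX1 (−0.11) were not called, and PKNOX2 had at most 6 counts.

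Retinoid genes, for the signal that induces anterior HOX genes, held some of the largest differences among the lists. Of 21 genes 9 were tested: 3 rose, 3 fell and 3 were not called, with a median of 0.19, beside 72.9% called over all genes. RDH10, which makes retinal from retinol on the way to retinoic acid, was at 44.2, 41.7 and 37.1 CPM in NC and 5.58, 5.59 and 4.14 CPM in BNC2 siRNA libraries (−3.0, SE 0.12, adjusted p = 1.4e-12). CRABP2, which carries retinoic acid to its receptors, was at 9.74, 11.7 and 10.7 CPM and at 2.79, 1.81 and 1.91 CPM (−2.30, SE 0.17, adjusted p = 3.6e-09). DHRS3, which turns retinal back to retinol, rose by 1.82 (SE 0.11). CYP26B1, which breaks down retinoic acid, rose by 2.50 (SE 0.31) from 9, 18 and 11 counts to 50, 70 and 89, and it passed the filter through the BNC2 siRNA libraries, where it was high. CYP26A1, an enzyme of the same kind, had 4, 2 and 4 counts in NC and 0 in every BNC2 siRNA library and was not tested, and CYP26C1 had 0 counts. Among the receptors RXRB rose (0.82, SE 0.08), RXRA fell (−0.21, SE 0.09, adjusted p = 0.039), and RARA (0.10) and RARG (0.19) were not called. The RXRA call was lost with DESeq2 (adjusted p = 0.063), without the filter (0.11), with the replicate block (0.081) and without NC replicate 2 (0.097), BNC2 replicate 2 (0.17) or BNC2 replicate 3 (0.056). CDX1, CDX2 and CDX4, which act upstream of HOX genes in the embryo, had 0 counts.

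Chromatin regulators of HOX genes moved in both directions. Of the 14 Trithorax genes tested 6 rose, 3 fell and 5 were not called, with a median of 0.08. Here and for Polycomb the number called is to be read against the 72.9% called over all genes. KDM6B, an H3K27 demethylase, rose most (0.75, SE 0.06), then the H3K4 methyltransferases MLL3 (0.71, SE 0.08) and MLL2 (0.65, SE 0.08), and WDR5 (−0.37, SE 0.06), ASH2L (−0.20, SE 0.07) and PSIP1 (−0.17, SE 0.07) fell. Without BNC2 replicate 1, and also with the replicate block, the number that fell was 1. Of 19 Polycomb genes 7 rose, 5 fell and 7 were not called, with a median of 0.01. CBX2, a reader of H3K27 methylation, rose by 1.21 (SE 0.09), JARID2 by 1.00 (SE 0.06) and SUZ12 by 0.61 (SE 0.07), whereas EED (−0.72, SE 0.13), the methyltransferase EZH2 (−0.59, SE 0.06) and PHC1 (−0.55, SE 0.15) fell. The number that rose was 4 without NC replicate 3 or BNC2 replicate 3, and with scaling by total counts 4 rose and 7 fell. The core genes of the Polycomb repressive complex that methylates H3K27 thus differed in sign.

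**Figure D5:**
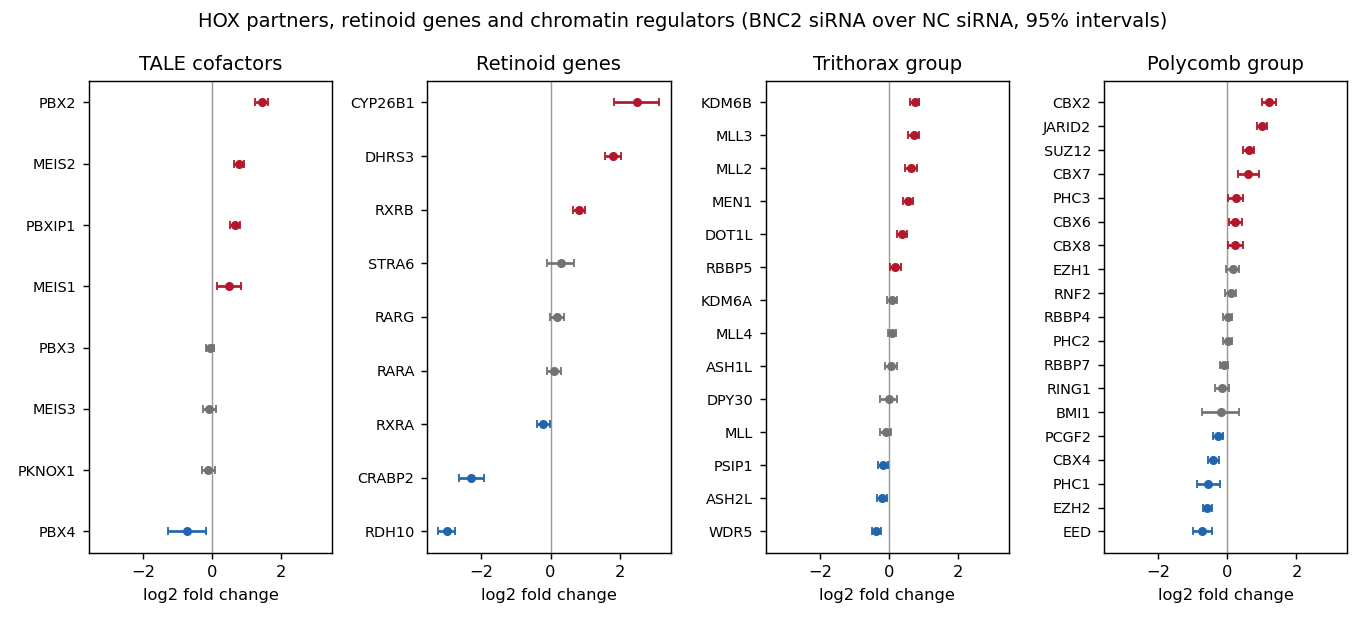
log2 fold change (BNC2 siRNA over NC siRNA) with its 95% interval for each gene tested of 4 lists; red is called up, blue called down and grey not called. PBX2 stands highest among the TALE cofactors shown at 1.43, and RDH10 lowest among retinoid genes at −3.0.

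Genes that flank the clusters were compared to see whether the falls extended past them. Of 33 such genes that were counted, 25 were tested: 11 rose, 7 fell and 7 were not called, with a median of 0.07, where 36.6% of all genes were called up and 36.2% down. Beside HOXA, SKAP2 was at −0.24 (SE 0.17, adjusted p = 0.22) and EVX1 had 0 counts. Beside HOXB, SKAP1 had 1 count in all, PRAC had 0 and TTLL6 at most 3. Near HOXC, SMUG1 was at −0.22 (SE 0.16, adjusted p = 0.24), CALCOCO1 fell by 0.32 (SE 0.09) and CBX5 fell by 0.49 (SE 0.06). Beside HOXD, MTX2 fell by 0.38 (SE 0.09), EVX2 had 0 counts and KIAA1715 rose by 1.15 (SE 0.08). Farther out, the largest falls were those of SNX11 near HOXB (−1.23, SE 0.13, adjusted p = 1.9e-07) and NFE2L2 near HOXD (−1.75, SE 0.06, adjusted p = 5.2e-13), both without overlap. The largest rises there were those of UBE2Z near HOXB (0.76, SE 0.06), COPZ1 (0.75, SE 0.06) and HNRNPA1 (0.64, SE 0.11) near HOXC and HNRNPA3 near HOXD (0.51, SE 0.05). These genes were named after their values were seen.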

How the data were processed

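Poly(A) RNA libraries of 6 BT549 samples were strand-specific and sequenced as single-end 75-base reads. The authors aligned reads to hg19 with STAR 2.6.1d in 2 passes and deposited raw counts per gene from its GeneCounts option; the series table equals the reverse-strand column of the library files in all 23346 genes, and the forward column gave opposite-strand reads. Reads not counted for a gene were 37.7% to 41.1% of all reads, and none of them entered library sizes. They were unmapped reads, reads mapped to several places, reads in no gene and reads on several genes (0.775% to 0.840% of all reads). Names and groups came from the labels.

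The counts were fitted with edgeR 4.0.16 (R 4.3.3; TMM scaling, factors 0.972 to 1.04, quasi-likelihood test, 2 groups of 3, 4 residual degrees of freedom, genes above 1 CPM, over total counts, in at least 3 libraries, Benjamini-Hochberg adjustment over 12186 genes, two-sided). The authors used the likelihood ratio test. Alternatives were that test, DESeq2 1.42.0, its size factors, total counts, no filter, filterByExpr, both strands, a replicate block and leaving out each library. The fit was tested on simulated data. Coordinates are GENCODE release 44 on GRCh37, while the authors' gene models were the UCSC set. Replicate libraries differed beyond sampling noise.

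The HOX genes and the lists were chosen with earlier results of these data known. Some genes and sequences are not reported here; every HOX gene enters the counts and sums; those called with at least 2-fold or 10 CPM have values in every library, as do some others. Of Trithorax, Polycomb and retinoid genes the 3 largest called rises and falls are named, and any others named were chosen after their values were seen. The labels and the methods name different transfection reagents.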

Additional observations from a re-analysis of the deposited data

How the results depend on the processing

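The number of HOX genes called down was 11 to 16 and the number called up 1 to 3 in all 14 alternatives. Counts called, the HOX median and the fold changes of BNC2 and the HOX genes tested were recomputed in these alternatives. Of these values 475 kept their direction and their side of the threshold or stayed within 1.5 times. Another 14 counts moved further, 4 values lost and 2 gained a call and 3 reversed. MEIS1 and RXRA, whose lost calls are given above, are not in this tally. With scaling by total counts, which shifted the median of all genes by −0.08, 1 HOX gene was called up, 2 genes of the TALE list down (4 up) and 4 Polycomb genes up (7 down), and HOXB6 turned to −0.063 and HOXC10 was not called (0.23). Without the filter 2 HOX cluster RNAs were called down. With the replicate block 1 Trithorax gene was called down; 12 HOX genes were down and 2 up, as without it. Replicate numbers did not pair the libraries (correlations of deviations −0.26, −0.09 and −0.15), and no library correlated best with its own number. Over the fits leaving out 1 library, HOX genes called up numbered 1 to 2, genes of the TALE list called down 0 to 1 and up 3 to 4, Polycomb genes called up 4 to 7 and Trithorax genes called down 1 to 3. HOXB6 was −0.08 without NC replicate 1 and −0.15 without BNC2 replicate 3, and up to 0.11 in these fits. HOXC10 ranged from 0.17 to 0.36. HOXB8 and HOXD9 each could not be fitted in 3 of them. The cause of these changes was not tested. Low genes had wide 95% intervals: that of HOXD9, with 10 to 26 counts a library, ran from −1.29 to 0.23. That of HOXB8, with 2 to 27 counts, ran from −2.28 to −0.43. The part of depth in these widths was not tested.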
